A study of Mus musculus with 104 samples.

Results

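D1 and D4 are the parent siRNAs of this series, directed against Hao1 and Ttr, and they are compared here directly at 10 nM. The comparison takes the 4 libraries labelled D1 at 10 nM and the 4 labelled D4 at 10 nM, 8 libraries in a series that holds 96 others, and sets 8 mock libraries of that series beside them as the common reference point. RNA was sequenced from primary mouse hepatocytes (PMH), liver parenchymal cells taken directly from mice and kept in short culture, 24 h after lipid transfection in 384-well plates. Both siRNAs are GalNAc conjugates with modified sugars along both strands and without glycol nucleic acid (GNA) in the seed. D1 and D4 share their dose, transfection reagent and time, and differ in target, in guide sequence and seed, and in the placement of 2′-F and 2′-OMe sugars, so that sequence and sugar pattern cannot be told apart. The reference is a mock transfection, and the labels give no age, sex, strain or donor of the hepatocytes. Nothing in the labels says that replicates came from separate cell preparations, so the p-values measure the spread between these libraries, which may be technical. The libraries held 5028063 to 5385354 gene counts for D1, 4976512 to 5559333 for D4 and 3409963 to 5308584 for mock.

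An siRNA guide strand is loaded into an Argonaute protein and directs cleavage of an mRNA to which it pairs along nearly its whole length. The same complex can act as a microRNA does: pairing of the seed, guide positions 2 to 8, with a site in a 3′-UTR is enough to lower the mRNA moderately. Which mRNAs can be lowered in this way depends on the seed, so a direct comparison of siRNAs with different seeds shows where they differ and, with mock beside it, what they have in common.

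The seeds were looked for as their complements in the mRNA. A mer8 site pairs with guide positions 2 to 8 and has an A opposite position 1, a mer7m8 site pairs with positions 2 to 8 and a mer7A1 site pairs with positions 2 to 7 and has the A. The D1 guide finds its intended site in the coding sequence of Hao1 in the last of 8 exons of the transcript ENSMUST00000028704.4, on the minus strand at chr2:134340220-134340242 (GRCm39). The intended site is shown because its last bases, in capitals, are the D1 mer8 match, which the other D1 matches hold in full or in part.
Hao1: cagaatgtgaaagtcATCGACAA

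Seed matches in 3′-UTRs are shown for 3 genes of each siRNA, with the match in capitals. Only genes lower with that siRNA than with the other were eligible, so their direction is not a result. For D1, Actg1 and Gda have mer7m8 sites and are among the genes with the largest difference, and Ube4b has the mer8 site with the lowest p.
Actg1: ttgggaacgtttgcATCGACAcctgta
Gda: aaacatgcttctagATCGACAttgtct
Ube4b: cagttcccaacacaATCGACAAtaaacg

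For D4, Tgfbr1 has a mer7m8 site, and Uhmk1 and Arpc5 have the mer8 sites with the lowest p. The mRNA strand is given for all of these sites.
Tgfbr1: actaacactttaaaCTCTATAgtctaa
Uhmk1: tgtgagctaacacaCTCTATAAccattt
Arpc5: aaccagcgcagaaaCTCTATAAactgct

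These windows lie in annotated 3′-UTRs of GRCm39, at chr11:120236662-120236688 (Actg1, minus strand), chr19:21371998-21372024 (Gda, minus strand), chr4:149412893-149412920 (Ube4b, minus strand), chr4:47411228-47411254 (Tgfbr1, plus strand), chr1:170026698-170026725 (Uhmk1, minus strand) and chr1:152651220-152651247 (Arpc5, plus strand). Arpc5 holds a further D4 match, a mer7m8 site, upstream in the same 3′-UTR. Among 20968 genes with an annotated 3′-UTR, taking the longest of each gene and searching the mRNA strand only, 83 (0.396%) held the D1 mer8 motif ATCGACAA, 327 (1.56%) ATCGACA and 260 (1.24%) TCGACAA, where genes with the mer8 motif are counted under all 3. The D4 motifs were more frequent: 637 genes (3.04%) held CTCTATAA, 1918 (9.15%) CTCTATA and 2853 (13.6%) TCTATAA. Of 1679 mature mouse microRNAs in RefSeq, 0 share guide positions 2 to 8, or 2 to 7, with either siRNA.

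Each siRNA lowered its own target most clearly. Hao1, which encodes the peroxisomal glycolate oxidase, was measured at 2.20, 2.36, 2.33 and 1.70 CPM (counts relative to library size, scaled by TMM) in the 4 D1 libraries, at 17.7, 20.1, 20.4 and 19.8 in the D4 libraries and at 27.9 to 39.0 (median 34.3) in mock. The 3 groups did not overlap, and D4 lay between D1 and mock. The difference D1 − D4 was −3.17 (SE 0.18, edgeR adjusted p = 1.69e-15) on the log2 scale, with D1 at −3.97 and D4 at −0.80 (adjusted p = 5.30e-07) relative to mock. The longest 3′-UTR of Hao1 holds a D4 mer7A1 match, a motif found in 13.6% of genes with a 3′-UTR. Its part in the lower level with D4 was not tested. In the D1 libraries 9 to 12 counts per library remained for Hao1.

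Ttr encodes transthyretin, the carrier of thyroxine and of retinol-binding protein in plasma. It was measured at 1.43, 1.79, 2.23 and 0.572 CPM with D4, against 965, 1010, 990 and 1114 CPM with D1 and 544 to 729 CPM (median 678) in mock. All D1 libraries were thus above all mock libraries as well, by 0.62 log2 (adjusted p = 2.42e-08), and D4 was 8.76 lower than mock. With ERCC scaling the rise with D1 was smaller (mean of D1 and D4 against mock −4.58, D1 − D4 9.57). The difference D1 − D4 was 9.38 (SE 0.15, adjusted p = 8.56e-33). In the D4 libraries 3 to 12 Ttr counts remained. F12 and Gapdh, named in the study as a further target and as an endogenous control, did not pass the direct test: D1 − D4 was −0.11 (SE 0.10, adjusted p = 0.466) for F12 and −0.16 (SE 0.07, adjusted p = 0.0626) for Gapdh. Without D1 replicate 4 and D4 replicate 2 Gapdh passed, at −0.22 (adjusted p = 0.0126), and with ERCC spike-in scaling it was at −0.01 (adjusted p = 0.981).

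**Figure D1:**
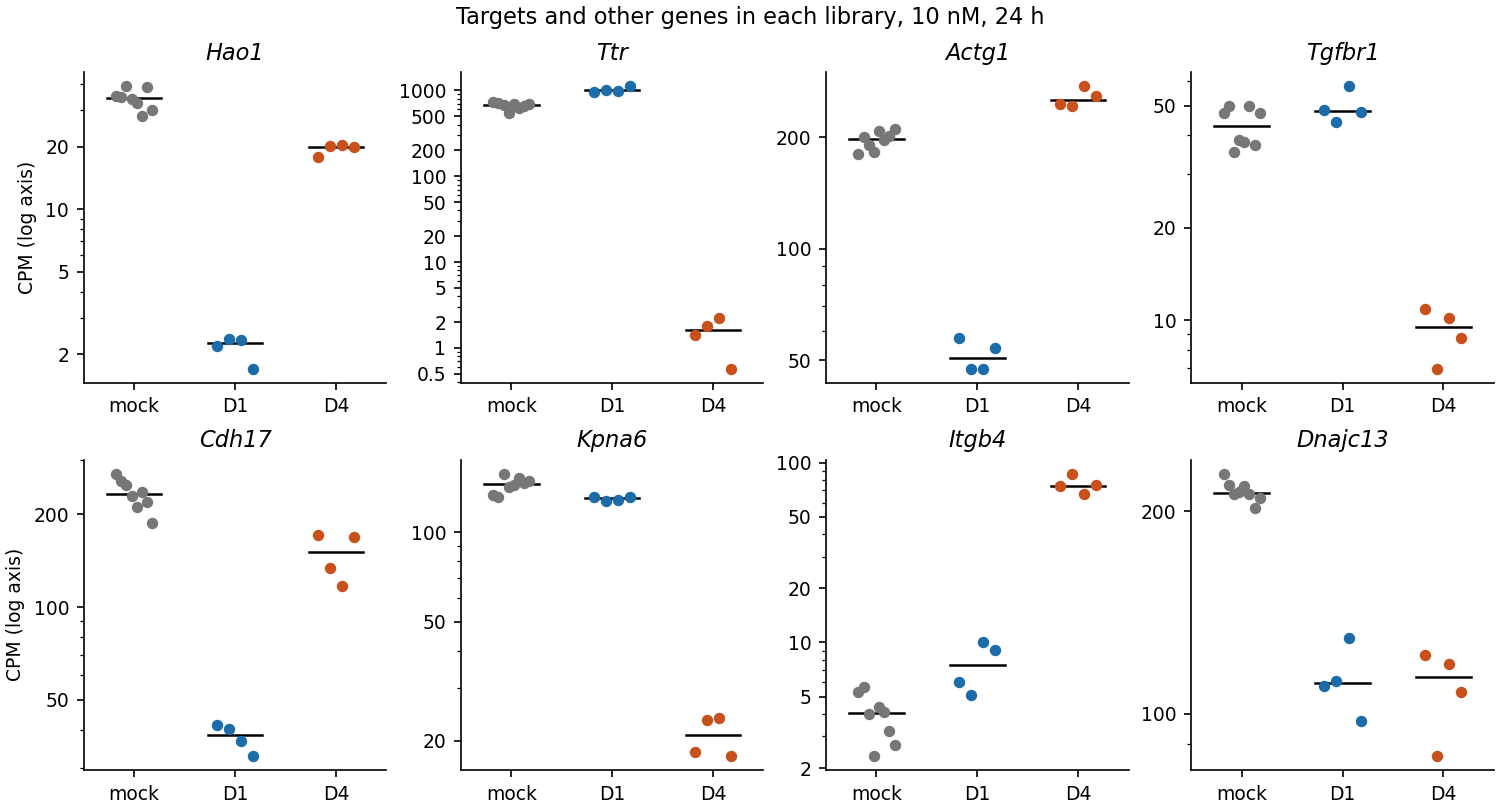
CPM on a log axis in each of the 8 mock (grey), 4 D1 (blue) and 4 D4 (orange) libraries, with the group median as a bar. Hao1, Actg1 and Cdh17 are lowest with D1, Ttr, Tgfbr1 and Kpna6 lowest with D4, Itgb4 is highest with D4, and Dnajc13 is at about the same lower level with both siRNAs.

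Across all genes, D1 and D4 differed in about as many genes in each direction. Of 11483 genes tested, 1636 (14.2%) were lower and 1689 (14.7%) higher in D1 than in D4 at an adjusted p under 0.05 in edgeR's quasi-likelihood test, and 179 of the former and 232 of the latter by more than 2-fold. In 1381 genes (12%) all 4 D1 libraries were below all 4 D4 libraries, and in 1449 (12.6%) all were above. The median of all genes was −0.01. With size factors from the ERCC spike-ins, which have counts in every library, that median became 0.16 and the calls became 224 lower and 967 higher, so the balance between the directions depends on the scaling. Of the 3325 genes called, 1163 were also called in the same direction with ERCC scaling and 0 had the opposite sign. D1 replicate 4 and D4 replicate 2 lay farthest from their group means (root mean square deviation 0.237 and 0.228 log2, against 0.155 to 0.209 for the other siRNA libraries), and without these 2 libraries 2990 genes were called.

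The mean of D1 and D4 was then compared with mock. Such a mean can also be moved by either siRNA alone. Ttr (mean −4.07) fell with D4 and rose with D1, and Marcks (mean 0.91) rose with D4 only. The calls for the mean are thus not all changes that both siRNAs share. The mean passed the test in 1378 genes (12%) that fell and 921 (8.02%) that rose. These counts rest on the scaling even more than the direct ones: with ERCC size factors the median of all genes against mock was −0.49, with 8540 genes called lower and 37 higher, since the spike-ins took 0.762% ± 0.131 (SD, n = 4) of the reads with D1, 0.864% ± 0.150 (n = 4) with D4 and 0.582% ± 0.106 (n = 8) in mock. The sources used here do not say whether the spike-ins were added per well or per amount of RNA, so the ERCC-scaled values cannot be read as RNA per cell. Values below are relative to the typical gene. Of the 2299 genes called for the mean, 1228 also differed between D1 and D4, as did 28.96% of all genes tested, and a further 2097 differed between the siRNAs without a call for the mean. A gene was counted as common where the mean was called and the 95% interval of D1 − D4 lay within ±0.5 log2. This held for 953 genes, 443 lower and 510 higher, and the interval alone lay within these bounds for 5645 genes, 49.2% of those tested. Neither siRNA had to differ from mock by itself, and the bound is wider than most of these changes. The median against mock was −0.23 with D1 and −0.30 with D4 for the lower genes, and 0.25 and 0.28 for the higher. Common genes were also more abundant, with a median of 86.5 CPM against 30.8 CPM for all tested. Against the same 8 mock libraries, 1064 genes were lower and 841 higher with D1, and 1633 lower and 1287 higher with D4.

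In a principal component analysis of the 16 libraries, the first component (33.2% of the variance) placed D4 at 22.3 to 34.2, apart from D1 at −13.1 to −6.58 and mock at −10.6 to −4.74. The second (20.04%) placed D1 at 14.04 to 24.97, apart from D4 at −3.33 to 5.42 and mock at −12.2 to −6.44. The first component thus set D4 alone apart, while on the second both siRNAs lay above all mock libraries, D1 farther than D4.

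**Figure D2:**
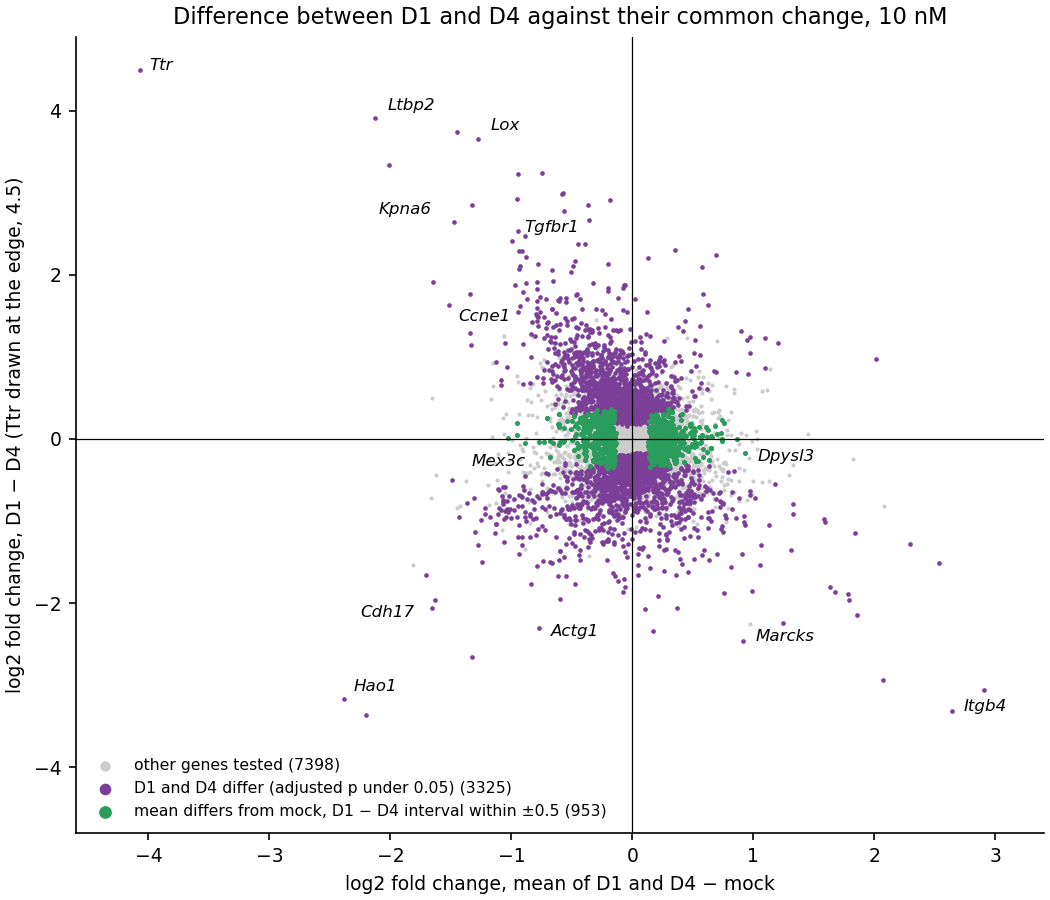
Each point is 1 of 11483 genes, with the log2 fold change of the mean of D1 and D4 against mock on the x axis and D1 − D4 on the y axis. Purple marks the 3325 genes that differed between the siRNAs and green the 953 common genes, some of which also passed the direct test. The common genes lie in a band along the x axis, while named genes of the direct comparison reach beyond 2 on the y axis in either direction.

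Among the 10 genes with the largest fold below D4, some fell with D1 and others rose with D4. Actg1, cytoplasmic γ-actin, was at 57.5, 47.4, 47.4 and 53.8 CPM with D1, 246, 242, 274 and 258 CPM with D4 and 180 to 211 CPM in mock (D1 − D4 −2.31, SE 0.08, adjusted p = 8.13e-22). D1 was 1.93 below mock and D4 0.38 above it. Gda, guanine deaminase, followed the same order, with D1 − D4 at −1.95, D1 at −1.57 and D4 at 0.38 relative to mock. Both hold the D1 mer7m8 site printed above.

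Cdh17, liver-intestine cadherin, was at 41.4, 40.3, 36.7 and 32.9 CPM with D1, 172, 134, 117 and 168 CPM with D4 and 187 to 271 CPM in mock. It fell with both, by 2.62 with D1 and by 0.65 with D4, without overlap between the 3 groups. It has no D1 match in its 3′-UTR and a D1 mer7m8 match in its coding sequence. Ccnb2, a cyclin of mitosis, also fell with D1 (D1 − mock −2.69, D1 − D4 −2.06), and neither its 3′-UTR nor its coding sequence held a match.

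Itgb4, the β4 integrin subunit of hemidesmosomes, had the largest fold of this group because of a rise with D4. It was at 5.99, 5.12, 10.1 and 9.07 CPM with D1, 74.2, 86.9, 67.0 and 74.8 CPM with D4 and 2.33 to 5.65 CPM in mock (D1 − D4 −3.31, SE 0.16, adjusted p = 2.17e-17). D4 was 4.29 and D1 0.98 above mock. Marcks, a membrane-bound protein kinase C substrate that binds actin, rose with D4 by 2.15 and was at −0.32 with D1 (adjusted p = 0.0861 against mock). Slc22a26, an organic anion transporter, rose with D4 by 1.92 and was at 0.06 with D1 (adjusted p = 0.922). Myh14, a non-muscle myosin heavy chain, and Atg9b, a membrane protein of autophagy, rose with D4 by 1.34 and 1.39 and fell with D1 (adjusted p = 0.0175 and 0.0462). Beside Hao1, the intended target, Itgb4 and Cdh17 held a D1 mer7m8 match in the coding sequence and Actg1 and Gda in the 3′-UTR, where 2.82% of all genes hold some D1 match. Of 10813 genes with a 3′-UTR, 579 held a D1 mer8 or mer7m8 match in the coding sequence alone. Marcks, which rose with D4, holds a D4 mer7A1 match in its 3′-UTR.

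Among the 10 genes with the largest fold above D4, all fell with D4. Kpna6, the nuclear import receptor importin α7, was at 18.2, 23.5, 23.8 and 17.7 CPM with D4, 132, 128, 129 and 131 CPM with D1 and 131 to 157 CPM in mock (D1 − D4 2.64, SE 0.09, adjusted p = 9.77e-22). It holds no match to the D4 seed in its longest 3′-UTR or its coding sequence. Tgfbr1, the type I receptor of transforming growth factor β (TGF-β), was at 10.9, 6.96, 10.2 and 8.77 CPM with D4, 48.4, 44.1, 57.7 and 47.8 CPM with D1 and 35.4 to 49.8 CPM in mock (D1 − D4 2.42, SE 0.14, adjusted p = 3.17e-15). Its 3′-UTR holds the D4 mer7m8 site printed above. Uhmk1 and Arpc5, a kinase and a subunit of the actin-nucleating Arp2/3 complex, differed by 2.29 (SE 0.09) and 1.68 (SE 0.08), with D4 2.06 and 1.44 below mock.

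The other genes of this group are given singly, and no list of secreted or matrix proteins was counted or tested. Ltbp2, a matrix protein of the latent TGF-β binding family, had 0 to 4 counts per library with D4 and 18 to 53 with D1 (D1 − D4 3.90, SE 0.46). Lox, the lysyl oxidase that crosslinks collagen and elastin, was at 1.59 to 5.19 CPM with D4, 36.6 to 56.1 CPM with D1 and 23.7 to 41.0 CPM in mock (D1 − D4 3.66, SE 0.25). Igfbp7, a secreted growth factor binding protein, and Ccl9, a chemokine, were higher in D1 by 2.98 and 2.85, and both fell with D4 and rose with D1 relative to mock. F13b, the carrier subunit of coagulation factor XIII, Ugt2b1, a glucuronosyltransferase, and Elmod1 were higher by 2.93, 2.47 and 3.24. Beside Ttr, the intended target, Tgfbr1 held a mer7m8 and Igfbp7 and Ccl9 a mer7A1 match to the D4 seed in the 3′-UTR, where 20.2% of all genes hold some D4 match. Ltbp2 held a mer7A1 match in the coding sequence, for which no share of all genes is given here.

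Since stellate cells and fibroblasts also make matrix proteins, their markers are given beside Ltbp2 and Lox. Of 8 markers, 1 passed the filter on low counts, Reln, which was higher in D1 by 0.81 (SE 0.17, adjusted p = 0.000567) and is the most abundant of them, and Pdgfrb was at 0 counts. The summed level of the 8 was 20.8 to 25.8 CPM with D1, 8.35 to 16.3 with D4 and 14.8 to 27.7 in mock. Its part in the differences of Ltbp2 and Lox was not tested. In bulk RNA, fewer cells of a type and less RNA per cell cannot be told apart. Hepatocyte markers summed to 17622 to 21628 CPM with D1 and 18198 to 20024 with D4, most of it albumin (Alb, 14575 CPM on average) and Apob (2901 CPM). All 9 matched markers passed the filter, but Cps1, Asgr1 and Tat were low, at 4.77, 5.21 and 7.09 CPM, below the cholangiocyte marker Krt19 at 142 CPM. Of the Kupffer cell markers Timd4, Marco, Vsig4 and Cd5l, of the endothelial markers Clec4g and Cdh5, and of the lymphocyte markers Cd3d, Ptprc and Nkg7 were at 0 counts in all 16 libraries. The markers of these types that passed the filter, 1 of 8 for Kupffer cells (−0.34), 2 of 8 for endothelium (median 0.16) and 1 of 6 for lymphocytes (0.32), did not pass the direct test. The Kupffer marker, Cd68, was above mock for the mean of both siRNAs (0.46, edgeR adjusted p = 0.0324) and with D4 (0.63, adjusted p = 0.0109). The call for the mean was lost with ERCC scaling (−0.04) and without D1 replicate 4 and D4 replicate 2 (0.33).

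Direct differences went with the seed matches of both siRNAs, and more so with longer matches. Genes with a D1 match in the 3′-UTR were more often lower in D1: 16 of 41 mer8 genes (39.0%), 46 of 157 mer7m8 genes (29.3%) and 26 of 107 mer7A1 genes (24.3%), against 15.2% of the 8407 genes with no match to either seed. The shares higher in D1 were 7.32%, 10.2% and 11.2%, against 12.8% with no match. Genes with a D4 match went the other way, with 119 of 335 mer8 genes (35.5%), 195 of 726 mer7m8 genes (26.9%) and 252 of 1128 mer7A1 genes (22.3%) higher in D1 and 5.67%, 10.9% and 13.5% lower. Hao1 and Ttr are left out of these counts. Genes with a match also had longer 3′-UTRs, with a median of 3158 bases for any D1 match and 3159 for any D4 match. The median was 1631 bases with no match, and the part of this length in the shares was not tested. The median D1 − D4 was −0.21, −0.13 and −0.12 for the D1 classes, 0.18, 0.09 and 0.05 for the D4 classes and −0.02 with no match. With ERCC scaling the shares lower in D1 were 14.6% for D1 mer8, 11.5% for mer7m8 and 1.87% for mer7A1, against 1.87% with no match, so the mer7A1 class no longer stood above it. The shares higher in D1 were then 24.2%, 17.2% and 13.4% for the D4 classes, against 6.83% with no match.

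Matches in the coding sequence went the same way. The shares are to be read against 15.2% lower and 12.8% higher among genes with no 3′-UTR match to either seed. Of 579 genes with a mer8 or mer7m8 match to the D1 seed only in the coding sequence, 151 (26.1%) were lower and 62 (10.7%) higher in D1, and among the 186 with a mer8 match 64 (34.4%) were lower. Of 373 such genes for D4, 84 (22.5%) were higher and 39 (10.5%) lower in D1, and the 128 with a mer8 match had about the same shares, 29 (22.7%) higher and 16 (12.5%) lower. With 1 D4 site of mer8 or mer7m8 type in the 3′-UTR, 28.9% of 954 genes were higher in D1, with 2 sites 35.6% of 101 genes and with 3 or more 2 of 6 genes. The median 3′-UTR length rose as well, from 3245 bases with 1 D4 site to 4341 with 2. For D1, 30.9% of 194 genes with 1 site were lower in D1, and more sites were present in only 4 genes, 2 of which were lower. The 88 genes that hold matches to both seeds had 24 lower (27.3%) and 13 higher (14.8%), against 14.7% and 15.3% of all genes with a 3′-UTR.

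The libraries were then compared by a seed score, the mean log2 CPM of a class minus that of the genes with no match. Genes with no match have the shorter 3′-UTRs given above, and the score was not adjusted for length. For D1 mer8 genes the score was −0.43 to −0.36 in the D1 libraries, −0.28 to −0.11 in the D4 libraries and −0.14 to 0.03 in mock. D1 lay below both other groups without overlap, while D4 overlapped mock. The mean difference D1 − D4 of this score was −0.23. Its size depended strongly on the use of means or medians and on the 3′-UTRs searched, as given in the last section. For D4 mer8 genes it was −0.24 to −0.11 in the D4 libraries, 0.07 to 0.16 in the D1 libraries and 0.10 to 0.16 in mock, so here D4 stood apart and D1 overlapped mock. For mer7m8 the D1 score was −0.27 to −0.21 with D1, −0.05 to 0.00 with D4 and −0.00 to 0.02 in mock, and the D4 score was 0.02 to 0.14 with D4, 0.22 to 0.28 with D1 and 0.22 to 0.26 in mock. For the D1 mer7A1 class, D1 (−0.16 to −0.08) and D4 (−0.08 to −0.03) overlapped, and so they did for the D4 mer7A1 class (D1 −0.024 to 0.059, D4 −0.13 to −0.017). As groups of 4 against 4 cannot give an exact p below 0.0286 and the classes were chosen with earlier results known, no test is given.

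**Figure D3:**
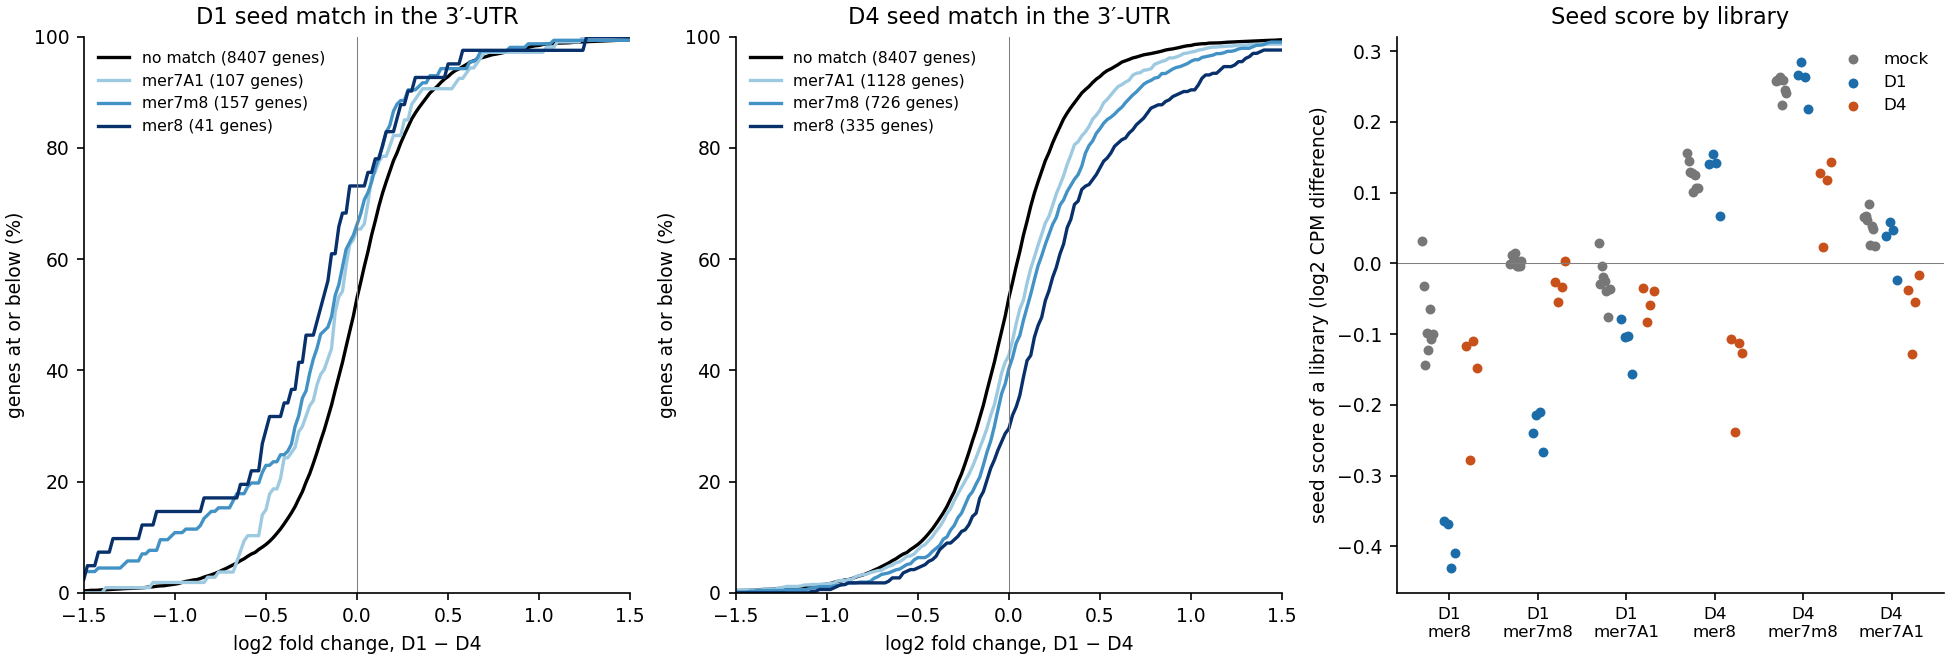
Cumulative percent of genes against the log2 fold change D1 − D4 for genes with a D1 match (left) or a D4 match (middle), by match type and beside genes with no match, and the seed score of each library (right). The curves move left with D1 matches and right with D4 matches, mer8 farthest at the median, and each siRNA's own libraries have the lowest score of its mer8 class.

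In a ranking of all 7-mers the seed matches were near the ends. Over 16376 7-mers present in the 3′-UTRs of at least 20 of 10811 genes, the mean D1 − D4 ran from −0.25 to 0.19. The lowest of all was ATCGACA, the D1 seed match (198 genes, mean −0.25), and TCGACAA, its form with the A, was at rank 5. CTCTATA, the D4 seed match, was second from the top (1061 genes, mean 0.17), behind CGATACG, a 7-mer in only 30 genes (0.19), and TCTATAA was at rank 26 from the top. The seed matches of the passenger strands, TCACATT for D1 and ACACTGT for D4, were at ranks 1244 and 7084 from the top, with means of 0.07 and 0.04.

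Genes with no seed match were the larger part both of the genes that differed and of all genes. Of 1591 genes with a 3′-UTR that were lower in D1, 5.53% held a D1 match, against 2.46% of the 7563 not called, and 80.3% held no match to either seed, as did 80.1% of those not called and 77.7% of all. Of 1659 that were higher in D1, 34.1% held a D4 match, against 18.2% of those not called, and 64.8% held none. Beyond 2-fold, 15.1% of 166 lower genes held a D1 match and 42.2% of 218 higher genes a D4 match. The common genes did not split evenly by match either: 31.4% of 440 common lower genes and 10.6% of 508 common higher genes held a D4 match, with 20.2% among all 10813 genes. For D1 matches the shares were 4.77% and 0.591%, with 2.82% among all. Genes with a match have longer 3′-UTRs, as given above, and the part of this length was not tested.

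The common genes with the largest change were of moderate size. Dnajc13, a cochaperone of endosomes, was at 110, 112, 129 and 97.4 CPM with D1, 122, 86.5, 119 and 108 CPM with D4 and 202 to 227 CPM in mock, so that both siRNAs overlapped each other and neither overlapped mock. The mean was 0.95 log2 below mock, and D1 − D4 was 0.04 (SE 0.09). Mex3c, an RNA-binding ubiquitin ligase, and Cldn2, a tight junction protein, were lower by 1.03 and 0.96, and 2510009E07Rik and Anln, the cytokinesis protein anillin, by 0.88 and 0.77. Higher with both were Dpysl3 (0.93), the calcium-binding Gca (0.76), the circadian genes Noct and Cry2 (0.74 each) and the actin-binding Cnn2 (0.74). Their D1 − D4 differences lay between −0.17 and 0.23, none past the test. With ERCC scaling the 5 lower genes stayed called, at −1.51 to −1.23, and of the 5 higher ones Dpysl3 alone stayed called (0.48), the others being at 0.26 to 0.28.

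The gene lists are described by their counts and medians, to be read against 14.2% of all genes lower and 14.7% higher in D1. ERCC-scaled list values are to be read against the ERCC-scaled counts and median of all genes given above. With that scaling, 1.87% of the 8407 genes with no seed match were lower and 6.83% higher, with a median of 0.15. No list was tested as a whole. The cell cycle list had the lowest median of the pathway lists: 12 of 16 members tested were lower in D1 than in D4 and 1 was higher (median −0.71, against −0.01 for all genes). Ccna2, Mki67, Top2a, Bub1, Ccnb1, Aurka and Cdk1, genes of replication and mitosis, were 1.02 to 1.75 lower than mock with D1 and 0.37 to 0.97 lower with D4. Mcm2, Mcm3 and Mcm5, subunits of the replicative helicase, were 0.41 to 0.62 below mock with D1 and 0.12 to 0.27 above it with D4, Mcm5 not past the test with D4 (adjusted p = 0.369). The exception was Ccne1, cyclin E1 of the transition to S phase, higher in D1 by 1.29, at −0.70 with D1 and −1.99 with D4 relative to mock. The mean of both siRNAs was below mock in 12 of the 16, against 12% of all genes. The summed level was 844 to 934 CPM with D1, 1082 to 1336 with D4 and 1234 to 1535 in mock, D4 overlapping mock. With ERCC scaling 5 were lower in D1, with a median of −0.56.

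Of 9 tested NF-κB and acute inflammation genes 6 were higher in D1 than in D4 and 0 lower (median 0.40). Ccl2, the monocyte chemokine, was at 382, 410, 376 and 441 CPM with D1, 182, 230, 181 and 210 CPM with D4 and 221 to 252 CPM in mock, with D1 above and D4 overlapping the lower end of mock (D1 − D4 1.003, SE 0.08). Icam1, an adhesion molecule, and Nfkbia, the NF-κB inhibitor, differed by 1.09 and 0.93. Of the acute phase proteins 4 of 14 were higher in D1 and 0 lower, among them Fgg, the fibrinogen γ chain, by 1.88 (SE 0.09), with D1 at 0.88 and D4 at −0.998 relative to mock. Fgb, the fibrinogen β chain, was at −0.15 and did not pass the test. Of 21 interferon response genes 3 were higher, 1 was lower and 17 did not pass, shares at or below those of all genes (14.7% higher, 14.2% lower). The 4 called were Ifi44 (0.91), Oas1a (0.54), Rigi (0.34) and Eif2ak2 (−0.40), and of these Ifi44 lost its call in several alternatives, Rigi with ERCC scaling (adjusted p = 0.0941) and without D1 replicate 4 and D4 replicate 2 (adjusted p = 0.0677), and Eif2ak2 with ERCC scaling (−0.24, adjusted p = 0.545).

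Stress genes were divided. Of 15 genes of the unfolded protein and integrated stress response, 8 were higher in D1 and 1 lower (median 0.19), with the chaperone Hspa5 at 1924 to 2335 CPM with D1, 1339 to 1591 with D4 and 1617 to 2001 in mock (D1 − D4 0.57, SE 0.08). With ERCC scaling 3 of these were called. Of 16 p53 targets 7 were lower in D1 and 2 higher, with a median of −0.16, and with ERCC scaling 1 was lower and 1 higher with a median of 0.02. Phlda3, an inhibitor of Akt signalling, was lower by 1.26 (D1 −0.98, D4 0.28 relative to mock), and Cdkn1a, the p21 inhibitor of the cell cycle, was at −0.03. Of 18 cytosolic ribosomal protein genes, 6 were lower in D1 and 0 higher (median −0.17), 1 of them with ERCC scaling, Rpl5, which was lower by 0.93 (SE 0.07) and at −0.75 with D1 relative to mock.

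Genes of liver function differed in both directions, and several of the lists were near the shares of all genes (14.2% lower, 14.7% higher). Of 13 cytochrome P450 genes 6 were higher in D1, such as Cyp2c70 (1.503, D4 at −1.54 relative to mock), and 2 lower, Cyp7b1 (−1.08) and Cyp3a13 (−0.78). In the coagulation list 6 of 15 were higher, among them F13b and F11 (0.99), and 1, Proc, was lower (4 higher and 0 lower with ERCC scaling). Cholesterol synthesis genes had 5 of 22 higher and 3 lower in D1 with differences of at most 0.48. For the mean of both siRNAs 8 were below mock, against 12% of all genes. With ERCC scaling these counts became 1 higher, 0 lower and 22 below mock, as most of all genes were called below mock with that scaling. Fatty acid synthesis had 5 of 16 lower and 3 higher, with Acacb at −0.96 and Pnpla3 at 1.25, and a median of −0.15, and with ERCC scaling 1 was lower and 2 higher with a median of 0.03. Fatty acid oxidation had 3 of 14 lower and 2 higher, with a median of −0.03 (0 lower, 2 higher and 0.15 with ERCC scaling), gluconeogenesis and glycolysis 0 of 11 lower and 1 higher, glyoxylate and peroxisomal oxidation 2 of 10 lower and 3 higher, Hao1 included (1 and 1 with ERCC scaling), and retinol and thyroxine transport 1 of 10 lower and 4 higher, Ttr included (0 and 2 with ERCC scaling). For hepatocyte markers 4 of 9 were higher and 1 lower. Of 5 tested cholangiocyte markers 1, Epcam, was lower in D1, at 4.80 to 7.77 CPM with D1, 13.9 to 21.3 with D4 and 0.595 to 2.83 in mock. For the mean of both siRNAs 3 of the 5 were above mock, Krt19 (0.59 with D1, 0.55 with D4), Krt7 (0.56 and 0.47) and Epcam (1.78 and 3.29). Of all genes, 8.02% were above mock for the mean. The summed level of the 6 markers was 212 to 247 CPM with D1, 204 to 262 with D4 and 152 to 178 in mock, so that both siRNAs lay above mock, and its part in the common changes was not tested. With ERCC scaling 1 of the 5 was above mock and 1 below.

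Of 14 genes of the RNA interference machinery, through which siRNAs act, 3 were lower and 4 higher in D1 than in D4 and 7 did not pass (1 lower and 2 higher with ERCC scaling), with a median of −0.03 that became 0.15 with ERCC scaling. Drosha, the nuclease that cuts primary microRNAs, was at 44.2, 35.2, 38.7 and 34.6 CPM with D1, 72.8, 64.2, 78.9 and 77.4 with D4 and 62.5 to 81.8 in mock (D1 − D4 −0.94, SE 0.10), so that D1 alone departed from mock. Its coding sequence holds a D1 mer8 match. Dgcr8, the RNA-binding partner of Drosha, was higher in D1 by 0.55 and 0.52 above mock with D1. Ago2, the slicing Argonaute, was at 331 to 366 CPM with D1, 193 to 311 with D4 and 372 to 419 in mock (D1 − D4 0.30, adjusted p = 0.0177), with D4 replicate 2 the lowest library at 193 CPM. Without that library the difference was 0.16 (adjusted p = 0.0676). Its 3′-UTR holds a D4 mer7m8 match. The part of the matches in Drosha and Ago2 was not tested.

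**Figure D4:**
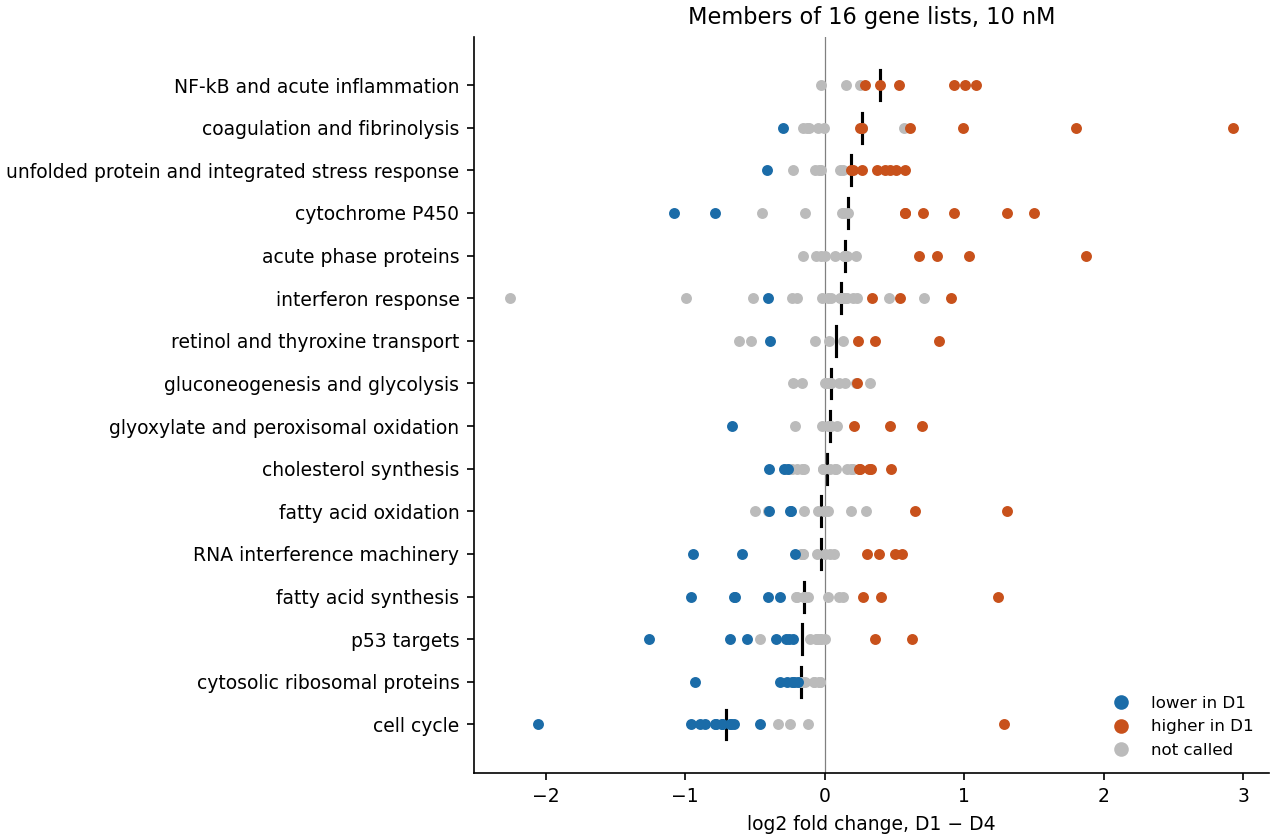
Log2 fold change D1 − D4 of each tested member of 16 pathway lists, in blue where lower and in orange where higher in D1 at an adjusted p under 0.05, with the list's median as a bar. Hao1 and Ttr are counted in the medians of their lists and are not drawn. The cell cycle list lies almost wholly to the left and the NF-κB list to the right.

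The same contrast in libraries of other doses shares no library with the one at 10 nM. At 50 nM, 3907 of 11133 genes (35.1%) differed between D1 and D4, at 1 nM 372 of 11049 (3.37%) and at 0.1 nM 4 of 11069 (18 with all genes of at least 1 count tested). With the replicate number as a block the counts were 613 at 1 nM and 15 at 0.1 nM. Of 1607 genes lower in D1 at 10 nM and tested at 50 nM, 1590 were lower there too, 1245 with a call, and 0 were called higher. Of 1660 genes higher at 10 nM, 1651 were higher, 1354 with a call. The medians were −0.45 at 50 nM and −0.46 at 10 nM for the lower genes and 0.48 at both for the higher ones. A test of the difference between the 2 doses called 0 genes with edgeR, with 348 of 11512 at an unadjusted p under 0.05. Ugt2b1 had the lowest p among the named genes, at 3.96 at 50 nM and 2.47 at 10 nM (difference −1.496, 95% interval −2.18 to −0.82, adjusted p = 0.999). At 1 nM 1314 of 1594 were lower and 1362 of 1660 higher in the same direction, with medians of −0.11 and 0.10. At 0.1 nM the shares were 52.3% and 49.5%, and the targets alone among the named genes passed the test, Ttr at 7.26 and Hao1 at −1.26. Across all genes tested in both, Pearson's r with the 10 nM values was 0.86 at 50 nM (11106 genes), 0.54 at 1 nM (11038) and 0.11 at 0.1 nM (11057). These are descriptions across genes, which are not independent replicates, and each pair of doses shares the 2 guide sequences.

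The same sequences with GNA in the seed were compared in the same way. D2 and D3 carry GNA-C and GNA-isoC at guide position 5 of the Hao1 sequence, and D5 and D6 carry GNA-G and GNA-isoG at position 6 of the Ttr sequence. At 10 nM, D2 and D5 differed in 436 of 11078 genes (3.94%) and D3 and D6 in 2524 of 11107 (22.7%). For Hao1 the differences were −4.12 (D2 − D5) and −4.70 (D3 − D6), and for Ttr 8.17 and 9.31. Actg1, at −2.31 between the parents, was at −0.22 and −0.43, and Cdh17, at −1.97 between the parents, was at 0.10 and −0.21. For Kpna6 the values were 2.64, 0.26 and 2.08, for Tgfbr1 2.42, 0.52 and 2.14 and for Lox 3.66, 0.10 and 3.10. Itgb4 kept part of its difference in both, at −1.21 and −2.60. The difference between the parent pair and D2 − D5 was itself past the test in 1859 of 11437 genes. For the 20 genes with the largest folds, which were chosen on the same 10 nM libraries, nothing is read from this test. The same test was not run for D3 − D6.

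**Figure D5:**
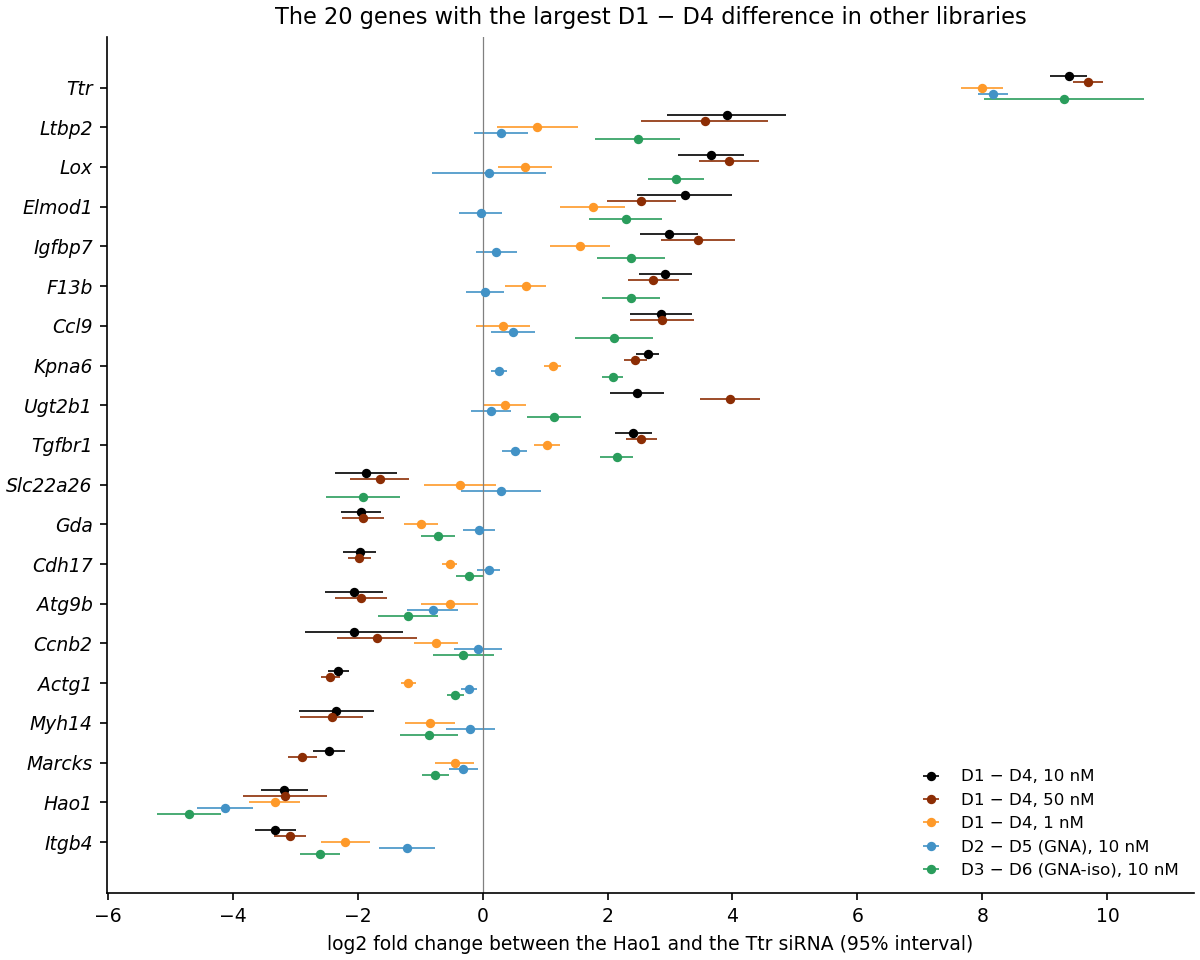
Log2 fold change between the Hao1 and the Ttr siRNA with its 95% interval for the 20 genes with the largest difference at 10 nM, in separate libraries of the parents (10 nM black, 50 nM brown, 1 nM yellow) and of the GNA (blue) and GNA-iso (green) siRNAs at 10 nM. The 50 nM values have the same sign as those at 10 nM, with the widest gap for Ugt2b1 (3.96 against 2.47), and most D2 − D5 values lie near 0, with Hao1, Ttr and Itgb4 farthest from it.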

How the data were processed

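Per the labels and the study's methods, the authors aligned reads to GRCm39 with STAR and deposited raw counts per gene from featureCounts 2.0.2, without normalization, separately for 2 sequencing runs. The authors' DESeq2 1.32.0 tables (fold changes and p-values against mock) were not used. The annotation behind the counts is not given in the sources used here. Runs were summed (chi-square per degree of freedom between runs 0.994 to 1.07, between replicates at least 1.67) and 92 ERCC rows left out of sizes and tests. The files list 55416 genes, named through GENCODE vM39.

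The 16 libraries were fitted together with edgeR 4.0.16 in R 4.3.3 (TMM, filterByExpr, glmQLFit with robust, glmQLFTest), with Benjamini-Hochberg adjustment over 11483 genes; log2 CPM used a prior count of 2. Other doses and GNA pairs had fits of their own. The tests of the difference between doses and between siRNA pairs were added after the data were seen. Code was tested on simulated data.

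Named are Hao1, Ttr, F12 and Gapdh; the 10 largest folds in each direction (adjusted p under 0.05, mean of at least 5 CPM, no overlap); the 5 largest common changes in each direction; up to 4 members of each of 22 lists with the lowest p; and 3 printed sites an siRNA. Other list members named were chosen after their values were seen. One name, G6pc, in 2 lists was not matched. Members and lists were chosen with earlier results of these data known. Seed scores use genes with a mean of at least 1 CPM. Alternatives were RLE and ERCC scaling, DESeq2 1.42.0, other filters, prior counts, 3′-UTRs, fits and runs, a replicate block and each library left out.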

Additional observations from a re-analysis of the deposited data

Results flagged for a closer look

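Among 129 groups of 4 or 8 libraries examined for a library far from the rest, 4 had one, and chance gives about 1 in 20. F13b was at 15.5 CPM in mock replicate 5, against 11.2 to 12.9 in the other mock libraries. Ugt2b1 was at 3.76 CPM in D4 replicate 1, against 2.58 to 2.79 in the other D4 libraries. The D4 mer8 seed score was 0.067 in D1 replicate 4, against 0.14 to 0.16 in the other D1 libraries, and −0.24 in D4 replicate 2, against −0.13 to −0.11 in the other D4 libraries. The latter are the libraries farthest from their group means over all genes.

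The difference between the Hao1 and the Ttr siRNA depended on the pair: with edgeR, 1859 of 11437 genes had a D1 − D4 difference at 10 nM that departed from D2 − D5 at 10 nM.

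The ERCC spike-ins, which were left out of the tests and used only for the alternative scaling, took a larger share of the reads with siRNA than in mock, 0.762% with D1 and 0.864% with D4 against 0.582% (exact permutation test, two-sided, p = 0.0303 and 0.00606, adjusted over 3 comparisons 0.0455 and 0.0182). D1 and D4 overlapped in this share (p = 0.314 by the same exact test).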

How the results depend on the processing

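The 20 genes with the largest difference between D1 and D4 kept their direction and their call in all 26 alternatives (largest adjusted p 0.0025, edgeR or DESeq2). Of 2721 values of the 105 named genes under alternatives, 75 lost the call, 29 of them with ERCC scaling, 8 gained it and 0 reversed. The causes were not tested. The direct comparison called 2600 to 3920 genes in the other alternatives and 1191 with ERCC size factors, and the mean against mock 1640 to 2880 and 8577 with ERCC size factors. Leaving out 1 library gave 2849 to 3326 and 2008 to 2482. The replicate numbers did not pair the samples (correlations of same-numbered D1 and D4 libraries −0.15 to 0.11); with the number as a replicate block 2991 genes were called, 1640 for the mean, 613 in place of 372 at 1 nM and 15 in place of 4 at 0.1 nM.

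The seed score difference D1 − D4, −0.23 for D1 mer8, was −0.42 as a difference of medians and −0.12 with any annotated 3′-UTR; for D1 mer7m8, −0.21, it was −0.18 with a mean of at least 5 CPM, −0.17 with any annotated 3′-UTR and, as alternatives chosen after seeing the data, −0.26 with the canonical 3′-UTR and −0.23 against all other genes; for D1 mer7A1, −0.06, it was −0.025 as medians; and for D4 mer8, 0.27, it was 0.33 with the canonical 3′-UTR. With ERCC scaling the median D1 − D4 of the lists became 0.27 for hepatocyte, 0.21 for cholangiocyte, 0.15 for RNA interference machinery, 0.58 for NF-κB, 0.32 for acute phase, 0.19 for glyoxylate, 0.26 for retinol and thyroxine transport, 0.37 for cytochrome P450, 0.20 for cholesterol synthesis, 0.026 for fatty acid synthesis, 0.15 for fatty acid oxidation, 0.21 for gluconeogenesis, 0.36 for unfolded protein, 0.019 for p53, 0.43 for coagulation and −0.017 for ribosomal proteins. Leaving out 1 library moved the medians of cytochrome P450 to between 0.13 and 0.38, gluconeogenesis to 0.021 and 0.18, glyoxylate to −0.0056 and 0.086, endothelial (2 genes) to 0.039 and 0.31, Kupffer (1 gene) to −0.54 and −0.14, lymphocyte (1 gene) to 0.10 and 0.88, retinol transport to −0.026 and 0.13, RNA interference machinery to −0.082 and −0.0042, fatty acid oxidation to −0.083 and −0.0073, hepatocyte to 0.03 and 0.17, acute phase to 0.09 and 0.22, interferon to −0.044 and 0.17, cholangiocyte to −0.026 and 0.096 and cholesterol synthesis to −0.033 and 0.075. At this depth the silenced targets rest on 3 to 12 counts a library.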
